A study of Rattus norvegicus with 16 samples.

Results

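Globins and the other red cell genes were examined in hearts of newborn rats. The set was chosen by name and held 9 genes: the globin genes Hbb, Hbe1, Hba-a2 and Hbz, the heme synthesis gene Alas2, the membrane genes Slc4a1 and Epb42, the globin chaperone gene Ahsp and the nuclear factor gene Hemgn. Each gene was read from the probe set that the array's annotation gives to it alone, and 7 of the 9 had such a probe set (1 each) among the 27342 probe sets of the array. Hba-a2 appeared only on 2 probe sets that also list Hba-a1, which are described apart from the other members, and Hbz was not analysed here.

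The rats were 2 days old, and each of the 16 arrays held the heart RNA of a single animal. They came from the Hypertrophic Heart Rat (HHR), a strain with polygenic cardiac hypertrophy whose hearts the labels call hypertrophic, or from the control strain, the Normal Heart Rat (NHR), whose heart size the labels give as normal. Each strain gave 4 females and 4 males, so that the 16 arrays form 4 groups of 4. The labels name no treatment other than an overdose of pentobarbitone at death, and no single allele that sets the strains apart. The labels do not settle whether atria were removed: a protocol field names the whole heart and the design text names dissected ventricles.

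Red cells carry oxygen on hemoglobin, a tetramer of alpha-type and beta-type globin chains, each of which holds a heme group. Embryonic chains are made first, by primitive red cells of the yolk sac, and are replaced by adult chains in the red cells that arise later in the liver and bone marrow. Mature red cells of mammals have no nucleus, so globin RNA in a heart is taken to come mainly from young red cells (reticulocytes and nucleated precursors) in the blood that its chambers and vessels hold. In such bulk tissue a smaller number of red cells and less RNA per red cell cannot be told apart.

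Heart muscle markers were strong in both strains. The mean log2 level of 10 ventricular genes lay between 13.19 and 13.44 on every array, and that of 5 atrial genes between 9.85 and 11.31. The median of all probe sets lay between 7.19 and 7.28, and the highest single value between 14.50 and 14.69. On the main axis of variation among replicates, the NHR arrays split: NHR female 3, NHR female 4 and NHR male 4 scored 14.4, 15.1 and 22.6, whereas NHR female 1, NHR female 2, NHR male 1 and NHR male 2 scored -16.9, -12.6, -11.1 and -13.2. NHR male 3 scored 1.74, and the 8 HHR arrays lay between -3.72 and 7.48. The axis held 26.7% of the variance among replicates. Scores are relative to the mean of each group, so they do not show which end is unusual. Results are therefore also given without the 3 arrays at the high end. The main ones and the counts of the gene lists are given without the 4 at the low end too. Both sets were chosen after seeing the data. The animals' litters are not known here.

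The main comparison asked which red cell genes differ between the hearts of the hypertrophic strain and those of its control. All values are log2 values on the RMA scale, and a difference is HHR minus NHR averaged over the sexes, with its moderated standard error (SE) from limma. A gene is said to have risen or fallen where its Benjamini-Hochberg adjusted p over all probe sets was below 0.05. Of the 7 measured members 3 rose in HHR (Hbb, Hbe1 and Ahsp), 2 fell (Slc4a1 and Epb42) and 2 did not pass (Alas2 and Hemgn). Over all probe sets 9.64% were called higher and 11.0% lower, or 20.7% in either direction. The members' median difference was 0.21, beside -0.02 over all 14324 genes. Without the 3 high-end NHR arrays 2 members were higher and 2 lower, beside 14.6% of all probe sets called. Without the 4 low-end NHR arrays 3 were higher and 2 lower, beside 28.3%.

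**Figure D1:**
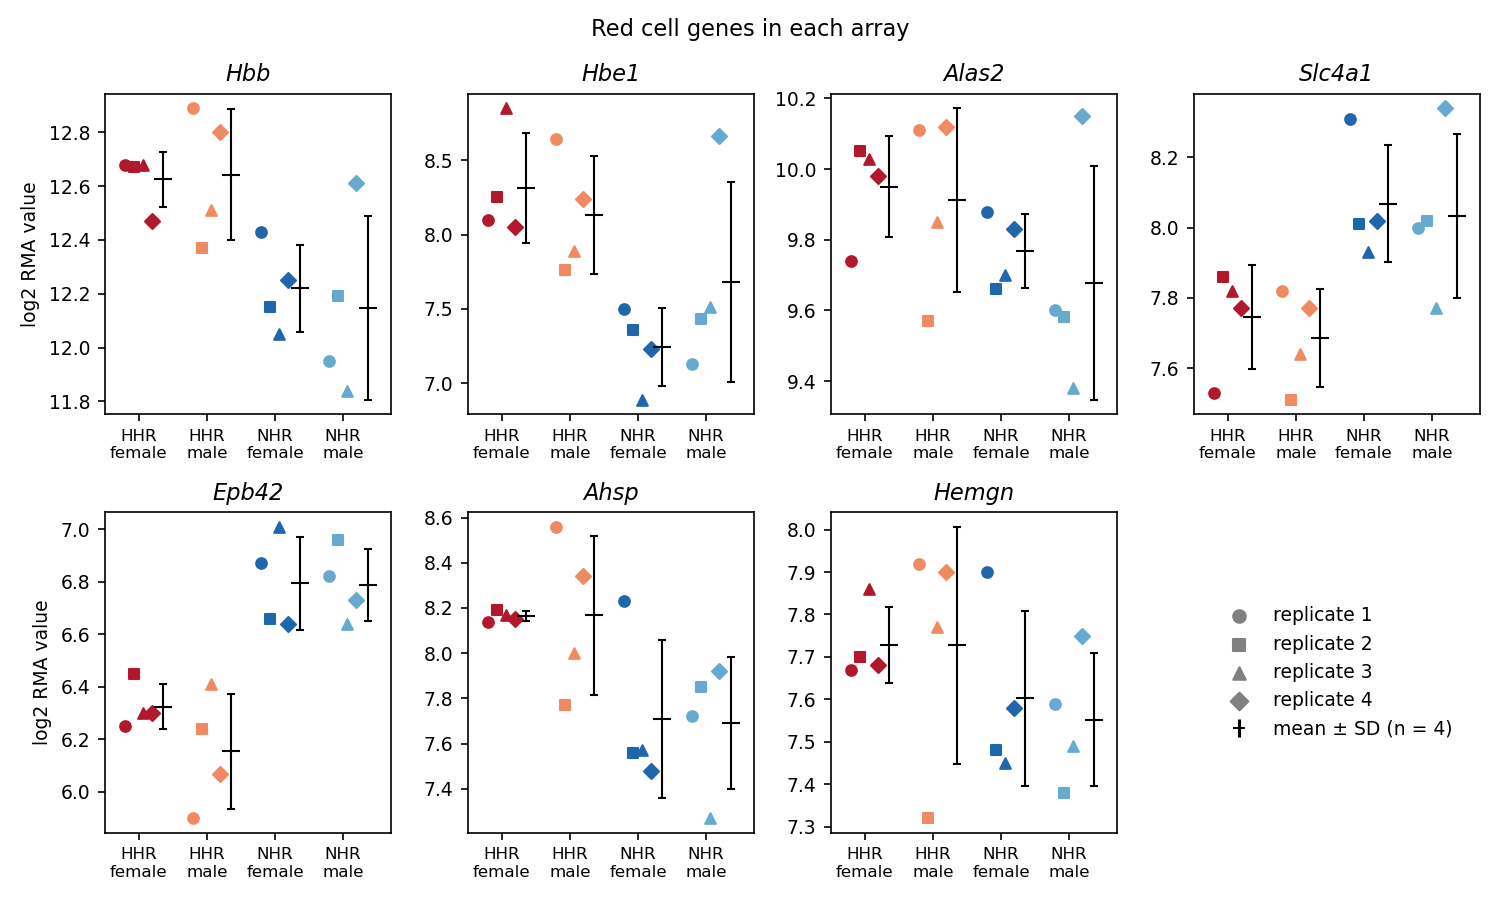
Log2 RMA value (vertical axes) of each of the 7 measured genes in each of the 16 arrays, by group (horizontal axes), with the group mean ± SD (n = 4) in black and a symbol for each replicate number. All 8 HHR arrays lie below all 8 NHR arrays for Epb42, whereas for Hbb 5 HHR arrays exceed every NHR array.

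Hbb encodes an adult beta-globin chain. It read 12.68, 12.67, 12.68 and 12.47 in the HHR females and 12.89, 12.37, 12.51 and 12.80 in the HHR males. The NHR arrays read 12.43, 12.15, 12.05 and 12.25 in the females and 11.95, 12.19, 11.84 and 12.61 in the males. The strains overlapped: 5 of 8 HHR arrays exceeded NHR male 4, the highest of NHR, and 6 of 8 NHR arrays lay below the lowest HHR array. The means were 12.63 ± 0.17 (SD, n = 8) and 12.18 ± 0.25, a 1.37-fold rise (log2 difference 0.45, SE 0.10, 95% confidence interval 0.24 to 0.66, limma adjusted p = 0.00433).

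Hbe1 encodes an embryonic epsilon-type chain of the same gene cluster, and its difference was the largest in size of the 7. It read 8.10, 8.25, 8.85 and 8.05 in the HHR females and 8.64, 7.76, 7.89 and 8.24 in the HHR males. In NHR it read 7.50, 7.36, 6.89 and 7.23 in the females and 7.13, 7.43, 7.51 and 8.66 in the males. Thus 7 of the 8 NHR arrays lay below every HHR array, and NHR male 4 alone lay among the highest of HHR. The means were 8.22 ± 0.37 (SD, n = 8) and 7.46 ± 0.53, a 1.69-fold rise (log2 difference 0.76, SE 0.19, interval 0.36 to 1.16, limma adjusted p = 0.00900). Leaving out NHR male 4 gave the highest difference of the leave-one-out fits, 0.92.

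The stretch just upstream of the start is shown for the passing members that the RefSeq promoter table lists, namely the beta-type pair that rose, Hbb and Hbe1, and Epb42, which fell. Each run is the 250 bases before the gene's RefSeq start in build GRCr8, read 5′ to 3′ on the gene's strand. Capitals mark words searched on both strands: GATA-type words (AGATAA or else TGATAA, also AGATAG or else TGATAG), the word CCAAT, the word CACCC and the word ATAAAA.
Hbb, chr1:167663722-167663971, minus strand: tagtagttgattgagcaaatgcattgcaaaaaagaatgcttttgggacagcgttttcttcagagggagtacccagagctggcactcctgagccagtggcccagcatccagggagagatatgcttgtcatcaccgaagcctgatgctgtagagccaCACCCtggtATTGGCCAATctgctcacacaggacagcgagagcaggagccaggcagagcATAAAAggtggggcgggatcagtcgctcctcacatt
Hbe1, chr1:167696281-167696530, minus strand: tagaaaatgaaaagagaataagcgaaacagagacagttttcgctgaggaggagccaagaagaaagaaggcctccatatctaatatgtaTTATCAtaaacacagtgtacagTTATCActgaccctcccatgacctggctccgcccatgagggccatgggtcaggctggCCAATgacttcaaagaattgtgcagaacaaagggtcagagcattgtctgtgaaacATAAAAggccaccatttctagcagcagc
Epb42, chr3:128451684-128451933, minus strand: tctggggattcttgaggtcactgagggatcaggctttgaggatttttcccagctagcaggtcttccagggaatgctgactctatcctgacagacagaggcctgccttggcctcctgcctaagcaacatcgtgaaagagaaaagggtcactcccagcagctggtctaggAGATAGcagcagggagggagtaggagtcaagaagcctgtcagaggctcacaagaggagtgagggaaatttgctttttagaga

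Both globin windows held ATAAAA close to the start, 36 to 31 bases before it in Hbb and 28 to 23 in Hbe1, a word found in 18.6% of 33465 RefSeq windows of the same length. Both also held CCAAT about as far upstream, at 81 to 77 bases in Hbb and 83 to 79 in Hbe1. In Hbb a copy on the opposite strand, at 86 to 82 bases, adjoins it. CCAAT was found in 34.0% of all windows. CACCC occurred in the Hbb window alone of the 3, at 95 to 91 bases, and in 49.2% of all windows. GATA-type words occurred on the opposite strand of Hbe1 in 2 places and once in Epb42, and in 27.0% of all windows. No marked words overlap each other, and a match is a string of letters, not a site shown to be used.

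Other beta-type globin probe sets were also examined. Hbb-b1, a further adult beta-globin gene, rose by 0.40 (SE 0.10, limma adjusted p = 0.00768), with means of 11.60 ± 0.15 (SD, n = 8) and 11.20 ± 0.26. A probe set that lists both Hbb-bs and Hbb-b1 gave 0.37 (SE 0.10, adjusted p = 0.0161). The adult beta-globin copies are near-identical in sequence, so their probe sets may share signal and are not independent of that of Hbb. Both calls were lost without the 4 low-end NHR arrays, at 0.27 each (limma adjusted p = 0.106 for Hbb-b1 and 0.142 for the shared probe set). Hbg1 and Hbe2, embryonic beta-type genes, were dim, with means over all arrays of 5.78 and 4.68, and did not pass (0.14, SE 0.07, adjusted p = 0.189, and 0.06, SE 0.05, adjusted p = 0.446). Without the 3 high-end NHR arrays Hbg1 passed too, so that 2 of the 7 measured genes of the other globin list were higher and 0 lower, in place of 1 and 0. Without the 4 low-end ones 1 gene of that list, not Hbb-b1, was higher and 0 lower.

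Alpha-globin signal was at the top of the scale in both strains. The 2 probe sets that list both Hba-a2 and Hba-a1 had means of 14.33 and 14.36, against a highest value of 14.50 to 14.69 for any probe set. On the brighter of them the strains averaged 14.38 ± 0.04 (SD, n = 8) and 14.34 ± 0.03, and the difference did not pass (0.04, SE 0.03, interval -0.03 to 0.11, limma adjusted p = 0.452). The other gave 0.03 (SE 0.03, interval -0.04 to 0.10, adjusted p = 0.604), and under cyclic loess both turned negative, to -0.04 and -0.05. How much room these probe sets have above that level was not tested. Hba-a3, an alpha-like gene of the same cluster, had a mean of 7.63 and did not pass either (0.09, SE 0.08, interval -0.07 to 0.25, adjusted p = 0.447).

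Ahsp encodes the chaperone that binds free alpha chains until they join beta chains. It read 8.14, 8.19, 8.17 and 8.15 in the HHR females and 8.56, 7.77, 8.00 and 8.34 in the HHR males. The NHR arrays read 8.23, 7.56, 7.57 and 7.48 in the females and 7.72, 7.85, 7.27 and 7.92 in the males. Among females NHR female 1 alone reached the HHR level, and among males the strains overlapped. The means were 8.16 ± 0.23 (SD, n = 8) and 7.70 ± 0.30, a 1.38-fold rise (log2 difference 0.46, SE 0.12, interval 0.20 to 0.73, limma adjusted p = 0.0131). This call was lost without the 3 high-end NHR arrays (0.41, SE 0.14, adjusted p = 0.0628), and was kept without the 4 low-end ones (0.61, SE 0.14, adjusted p = 0.00459).

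Alas2 encodes the red cell form of aminolevulinate synthase, which starts heme synthesis, and lies on the X chromosome. It read 9.74, 10.05, 10.03 and 9.98 in the HHR females and 10.11, 9.57, 9.85 and 10.12 in the HHR males. In NHR it read 9.88, 9.66, 9.70 and 9.83 in the females and 9.60, 9.58, 9.38 and 10.15 in the males. The single highest array was NHR male 4, and no HHR array lay outside the NHR range. The difference of 0.21 (SE 0.10, interval 0 to 0.42, limma adjusted p = 0.150) did not pass. Without NHR male 4 it was 0.29 and passed (adjusted p = 0.0186), and without all 3 high-end NHR arrays it was 0.29 and did not (adjusted p = 0.0517).

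Hemgn encodes hemogen, a nuclear protein of blood-forming cells. It read 7.67, 7.70, 7.86 and 7.68 in the HHR females and 7.92, 7.32, 7.77 and 7.90 in the HHR males. The NHR arrays read 7.90, 7.48, 7.45 and 7.58 in the females and 7.59, 7.38, 7.49 and 7.75 in the males. HHR male 2 was the lowest of all 16 arrays although the HHR mean was the higher, and the difference of 0.15 (SE 0.09, interval -0.04 to 0.33, limma adjusted p = 0.250) did not pass. Without HHR male 2 it was 0.22 and passed (adjusted p = 0.0460).

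The membrane genes went the other way. Slc4a1 encodes band 3, the anion exchanger that also anchors the red cell's skeleton. It read 7.53, 7.86, 7.82 and 7.77 in the HHR females and 7.82, 7.51, 7.64 and 7.77 in the HHR males. In NHR it read 8.31, 8.01, 7.93 and 8.02 in the females and 8.00, 8.02, 7.77 and 8.34 in the males. All NHR arrays but NHR male 3 lay above every HHR array. The means were 7.71 ± 0.14 (SD, n = 8) and 8.05 ± 0.19, a 1.26-fold fall (log2 difference -0.34, SE 0.08, interval -0.50 to -0.17, limma adjusted p = 0.00673). It passed also without the 3 high-end NHR arrays (-0.33, SE 0.08, adjusted p = 0.0119).

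Epb42 encodes protein 4.2, which binds band 3 and ankyrin. It read 6.25, 6.45, 6.30 and 6.30 in the HHR females and 5.90, 6.24, 6.41 and 6.07 in the HHR males. The NHR arrays read 6.87, 6.66, 7.01 and 6.64 in the females and 6.82, 6.96, 6.64 and 6.73 in the males. The strains did not overlap, which was so for 2.20% of all probe sets in this direction and 1.95% in the other. The means were 6.24 ± 0.18 (SD, n = 8) and 6.79 ± 0.15, a 1.47-fold fall (log2 difference -0.55, SE 0.07, interval -0.71 to -0.40, limma adjusted p = 9.3e-05). It was the dimmest of the 7 genes, with a mean at the 39.1th percentile of all values, and the files give no background level to set it against. Without the 3 high-end NHR arrays the difference was again -0.55 (SE 0.08, adjusted p = 6.8e-04).

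**Figure D2:**
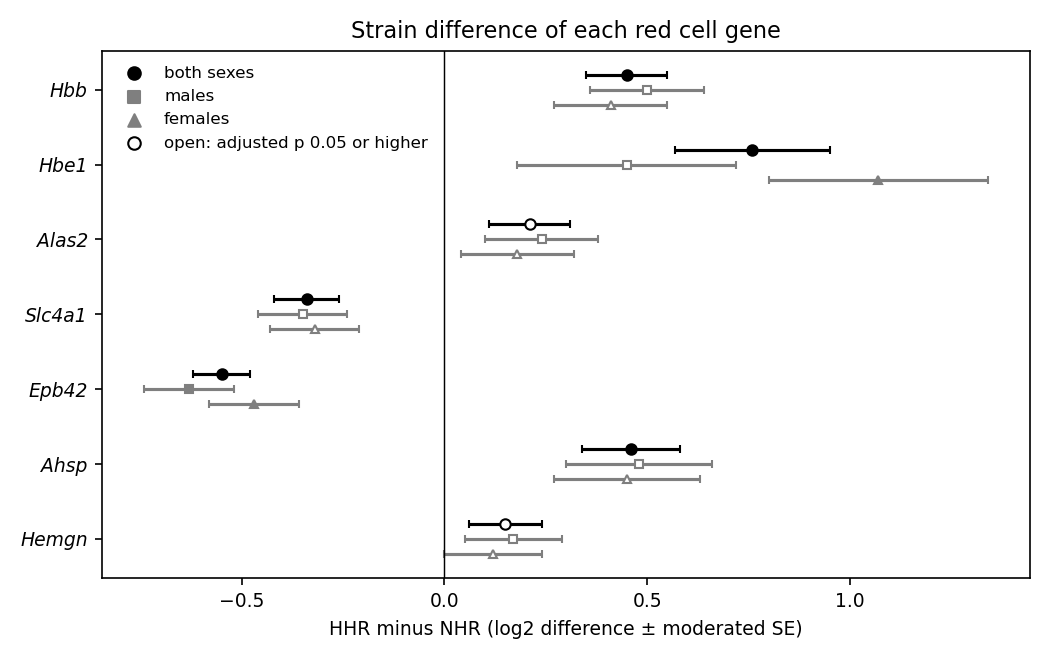
HHR minus NHR as log2 difference (horizontal axis) for each measured gene (vertical axis), over both sexes, in males and in females. Bars are the moderated SE from limma, and filled symbols have an adjusted p below 0.05. Slc4a1 and Epb42 lie below 0 and the other 5 genes above it in all 3 comparisons.

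Within each sex every member kept its sign, 5 higher and 2 lower in HHR. Fewer passed, with 4 arrays a group. The SE of a within-sex difference came from the spread in all 4 groups, so arrays of the other sex also bear on a call. The groups were not always alike in spread: for Ahsp the SD was 0.02 in HHR females and 0.35 in NHR females. In males Epb42 alone passed (-0.63, SE 0.11, limma adjusted p = 0.00229), beside 4.02% of all probe sets called, 2.03% higher and 1.98% lower. In females Epb42 (-0.47, SE 0.11, adjusted p = 0.00861) and Hbe1 (1.07, SE 0.27, adjusted p = 0.0159) passed, beside 12.0% of all probe sets called, 5.78% higher and 6.21% lower. Hbe1 lost that call without HHR female 3 or without NHR female 3, the highest and the lowest of its group. Hbb differed by 0.50 in males (SE 0.14, adjusted p = 0.0597) and by 0.41 in females (SE 0.14, adjusted p = 0.0731). In males Hbb passed in 6 of 28 alternatives, among them the fit without NHR male 4, which raised its difference to 0.65. In females Hbb passed in 4 of 28. These were the 8 females alone (SE 0.09, limma adjusted p = 0.0204) and the fit without NHR male 4 (SE 0.11, adjusted p = 0.0241). Both left the difference at 0.41 and changed the spread it was set against. The others were array weights (adjusted p = 0.0388) and the fit without NHR female 1 (adjusted p = 0.0464). Ahsp passed in females in 2 of 28, and Slc4a1 in 1.

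The strain effect was not shown to differ between the sexes for any member. The interaction, the male effect minus the female effect, was called for 0 of 27342 probe sets by limma (0% of them), and 1390 had an unadjusted p below 0.05. For Hbe1, with effects of 0.45 in males and 1.07 in females, it was -0.62 (SE 0.38, interval -1.42 to 0.18, limma adjusted p = 0.994). For the other 6 members it lay between -0.16 and 0.09, and for Hbb, Alas2, Slc4a1, Ahsp and Hemgn its sign changed among the alternatives. Sexes averaged over the strains differed by -0.09 to 0.13 (males minus females) in the 7 members, none of which passed (lowest limma adjusted p = 0.868), beside 0.0110% of all probe sets called, 0.00366% higher and 0.00731% lower. The sign of this sex difference changed among the alternatives for Hbb, Hbe1, Slc4a1, Ahsp and Hemgn. For the X-linked Alas2 the difference was -0.06 (SE 0.10, interval -0.27 to 0.15).

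Among replicates of a group, 6 of the 7 genes correlated positively with each other. Each gene's values were set as deviations from the mean of their group, which removes strain and sex, and all 21 pairs of genes were correlated over the 16 arrays. Of the 15 pairs without Epb42, 14 passed a permutation test of r within groups after adjustment over the 21 pairs, and 13 passed by Spearman's rho. Over all 15 pairs r ran from 0.53 to 0.91 and rho from 0.44 to 0.91. All 21 pairs share their arrays and their normalization, and the main axis among replicates held 26.7% of the variance. Epb42 was set apart after its values were seen. How often pairs of other genes pass was not computed, so the count has no background beside it. The closest pair was Alas2 and Slc4a1, with r = 0.91 (permutation p = 4.0e-05, adjusted p = 8.4e-04) and rho = 0.91 (permutation p = 4.0e-05, adjusted p = 8.4e-04). Without NHR male 4 and HHR male 2, the arrays farthest from the median of Alas2, its r was 0.88, and it was 0.94 within HHR and 0.90 within NHR.

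Hbb correlated with Alas2 at r = 0.86 (permutation p = 0.00207, adjusted p = 0.00627; rho = 0.79, permutation p = 0.00351, adjusted p = 0.0105), and at 0.72 without the 2 arrays farthest from the median. It correlated with Hbe1 at r = 0.84 (permutation p = 0.00115, adjusted p = 0.00604; rho = 0.81, permutation p = 0.00163, adjusted p = 0.00739), and at 0.78 without them. The pair that passed by neither was Hbe1 and Ahsp, which had the lowest values of the 15, at r = 0.53 (permutation p = 0.058, adjusted p = 0.0812) and rho = 0.44 (permutation p = 0.138, adjusted p = 0.181). Hbe1 and Slc4a1 passed by r (0.73, permutation adjusted p = 0.0161) and not by rho (0.60, permutation adjusted p = 0.0533). Without the 3 high-end NHR arrays the 15 pairs had r from 0.46 to 0.92, with a median of 0.69 in place of 0.77, and 4 of all 21 pairs passed in place of 14. Leaving out the 4 low-end ones, 7 pairs passed.

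Epb42 had no passing correlation with the others over the 16 arrays. Its 6 pairs had r from -0.44 to -0.06 and rho from -0.50 to 0, and none passed (lowest adjusted permutation p = 0.141). The strains differed in these pairs: r ran from -0.74 to -0.27 within HHR and from -0.34 to 0.46 within NHR. That difference was not tested. With Slc4a1, whose protein it binds, r was -0.06 (permutation p = 0.849, adjusted p = 0.849) and rho -0.03. Both genes fell in HHR, but the array with the lowest Epb42, HHR male 1, had the highest Hbb and Ahsp of all 16 arrays.

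**Figure D3:**
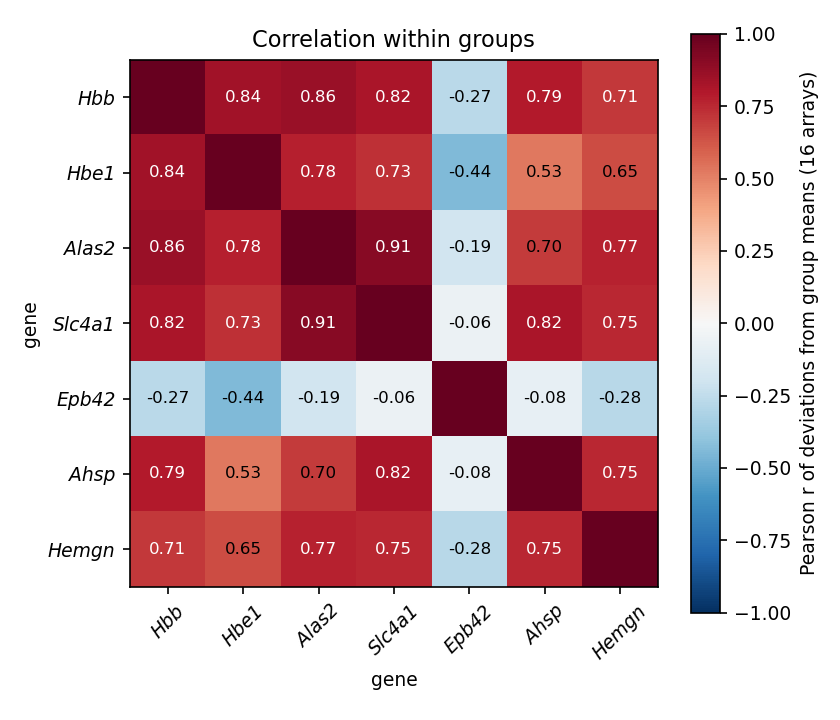
Pearson r of deviations from the group means over 16 arrays (colour and number) for each pair of the 7 measured genes (both axes). The row and column of Epb42 hold values of -0.44 to -0.06, and the other pairs 0.53 to 0.91.

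Since Slc4a1 followed Alas2 from array to array and yet differed from it between strains, the gap between their log2 values was taken within each array. The gap leaves out what moves both genes by the same log2 amount on an array. Its level depends on the probes and has no meaning, so only its change between strains is read. A sequence difference between the strains under a probe of either gene could also change it, which was not tested. The gap was -2.21, -2.19, -2.21 and -2.21 in the HHR females and -2.29, -2.06, -2.22 and -2.35 in the HHR males. In NHR it was -1.56, -1.65, -1.77 and -1.80 in the females and -1.60, -1.57, -1.61 and -1.81 in the males. The strains did not overlap, and the spread was less than that of Slc4a1 itself: HHR averaged -2.22 ± 0.08 (SD, n = 8) and NHR -1.67 ± 0.10, a change of -0.55. A gap to Alas2 without overlap was found for 0.424% of all other probe sets in this direction, 0.0732% in the other and 0.497% in either. Before any gap was taken, the shares without overlap were 2.20% in this direction and 1.95% in the other. Slc4a1 was taken because it followed Alas2 closely, which other probe sets need not do, so the gap shares are not a like reference for it. The gap comparison was chosen after seeing the values and carries no test.

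The same gap was taken for the other members. Each change is, up to rounding, the gene's own strain difference less the 0.21 of Alas2, which did not pass. For Epb42 the gap changed by -0.76, with 7 of the 8 HHR arrays under every NHR array. Epb42 did not follow Alas2 from array to array (r = -0.19), so the ground for the gap did not hold for it. Its gap had SDs of 0.30 in HHR and 0.27 in NHR, wider than those of the gene itself (0.18 and 0.15), which had no overlap. For Hbb the gap changed by 0.24, and 7 of 8 HHR arrays, all but HHR female 4, exceeded every NHR array. It changed by 0.55 for Hbe1 and by 0.26 for Ahsp, each with 2 HHR arrays beyond the range of NHR. For Hemgn the gap changed by -0.06, at -2.20 ± 0.10 (SD, n = 8) in HHR and -2.14 ± 0.17 in NHR. The HHR arrays, at -2.35 to -2.07, all lay within the wider NHR range of -2.40 to -1.89.

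**Figure D4:**
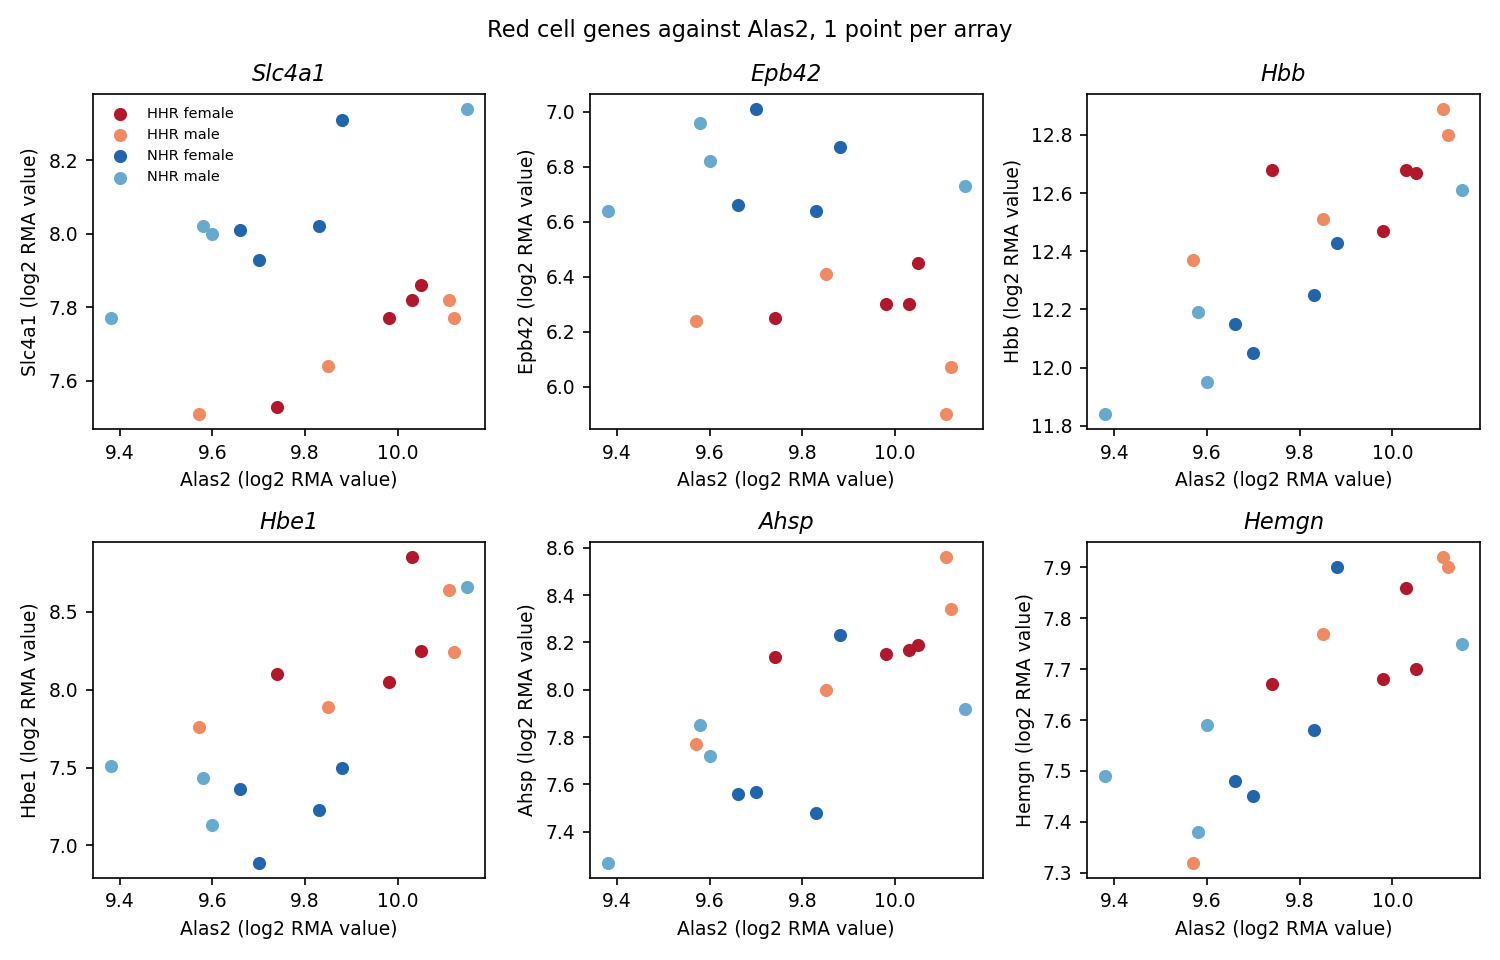
Log2 RMA value of 6 genes (vertical axes) against that of Alas2 (horizontal axes), with 1 point per array coloured by group. For Slc4a1 the HHR and NHR arrays form separate bands, with gaps to Alas2 of -2.35 to -2.06 and -1.81 to -1.56, while for Hemgn the strains mix.

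Other genes of red cells were taken from lists, and each gene was read from its brightest single-symbol probe set. Over all 14324 genes 11.8% were called higher and 11.2% lower in HHR, or 23.1% in all. Of all probe sets 20.7% were called on the 16 arrays. That share was 14.6% without the 3 high-end NHR arrays and 28.3% without the 4 low-end ones. The counts of this and the later lists on fewer arrays stand beside those shares. Of 16 measured genes of the red cell membrane and skeleton 2 rose and 4 fell, with a median of -0.07. Ank1, the ankyrin that ties band 3 to spectrin and also has a muscle form, fell by 0.21 (SE 0.05, limma adjusted p = 0.00429), and on this gene the strains did not overlap. Slc2a1, the glucose transporter of red cells and of fetal heart, fell by 0.48 (SE 0.07, adjusted p = 2.1e-04), again without overlap. Epb41, the skeleton protein 4.1, and the water channel gene Aqp1 fell by 0.25 and 0.22 (limma adjusted p = 0.00901 and 0.0361). Neither call was followed through the alternatives. Xk, a membrane transporter gene named for the Kx blood group, rose by 0.41 (SE 0.08, adjusted p = 0.00116), and 7 of the 8 HHR arrays exceeded every NHR array. Slc43a1, an amino acid transporter gene, rose by 0.21. Rhag, which encodes a red cell glycoprotein of the Rh complex, was dim (mean 5.13) and differed by -0.08 (SE 0.05, adjusted p = 0.338). With the 3 high-end NHR arrays left out, 2 of the 16 were higher and 3 lower. With the 4 low-end ones left out, 4 were higher and 5 lower.

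Heme synthesis and iron supply genes went in both directions, with 3 of 16 higher, 2 lower and a median of 0.03. Uros and Alad, which encode enzymes of heme synthesis, rose by 0.31 (SE 0.09, limma adjusted p = 0.0193) and 0.22 (SE 0.06, adjusted p = 0.0178). Slc25a39, a mitochondrial carrier gene, rose by 0.16, and Ppox, a later enzyme gene of the pathway, fell by 0.12 (adjusted p = 0.0441). The call of Ppox, near the threshold, was not followed through the alternatives. Tmem14c, which encodes a mitochondrial protein needed for heme synthesis in red cell precursors, fell by 0.41 (SE 0.08, adjusted p = 0.00141), without overlap of the strains. Tfrc, the transferrin receptor, by which red cell precursors take up iron, differed by -0.01 (SE 0.07, adjusted p = 0.935). Without the 3 high-end NHR arrays 0 were higher and 1 lower, and Uros and Alad had limma adjusted p-values of 0.170 and 0.0691. Without the 4 low-end ones 5 were higher and 3 lower. Slc25a39 lost its call in 11 of 28 alternatives, which include quantile normalization and dropping HHR female 1, 2 or 3, HHR male 1 or 2, NHR female 3 or 4, or NHR male 1 or 3 (highest limma adjusted p = 0.112).

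Erythroid transcription and signalling genes gave 0 higher and 3 lower of 18, with a median of -0.03. Among factors that switch on globin genes none of 3 passed: Gata1 differed by 0 (SE 0.05, interval -0.10 to 0.10, limma adjusted p = 0.993), Klf1 by 0.04 (SE 0.06, adjusted p = 0.655) and Tal1 by 0.08 (SE 0.05, adjusted p = 0.285). All 3 were dim in these hearts, with means of 6.15, 7.07 and 6.20 below the median of all probe sets. Epor, the erythropoietin receptor, differed by -0.03 (SE 0.06, adjusted p = 0.738). Bcl11a and Sox6, which repress embryonic beta-type globin genes in red cell precursors and are also made in other tissues, fell by 0.20 (SE 0.05, adjusted p = 0.00932) and 0.24 (SE 0.06, adjusted p = 0.00633). Foxo3 was at the threshold (-0.12, SE 0.04, adjusted p = 0.0490) and lost its call in 17 of 28 alternatives (highest adjusted p 0.177). These included median centring, array weights and leaving out any of HHR female 1, 3 or 4, HHR male 1, 2 or 3, NHR female 1, 2 or 3, or NHR male 1, 2 or 4. With the 3 high-end NHR arrays left out, 0 were higher and 2 lower, and with the 4 low-end ones left out 1 was higher and 2 lower.

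Of 16 genes of red cell enzymes and late maturation 2 rose and 1 fell, with a median of 0.05. Gpx1, the glutathione peroxidase of red cells and many tissues, rose by 0.21 (SE 0.05, limma adjusted p = 0.0102). Cat, the catalase gene, differed by 0.20 (adjusted p = 0.0459) and Ypel4 by -0.20 (adjusted p = 0.0337). Cat lost its call in 16 of 28 alternatives: under quantile normalization (0.13, adjusted p = 0.208), cyclic loess (0.15, adjusted p = 0.110) and array weights, without the 3 high-end NHR arrays (0.08, adjusted p = 0.314), and when any one HHR array, NHR female 3 or 4, or NHR male 3 or 4 was dropped. Ypel4 lost its call in 15 of 28: under quantile normalization, median centring, cyclic loess and array weights, without the high-end or the low-end NHR arrays, and when HHR female 1 or 4, HHR male 1, 3 or 4, NHR female 1 or 3, or NHR male 2 or 3 was dropped (highest limma adjusted p = 0.0954). With the high-end NHR arrays left out, 0 of the 16 passed by limma, and Gpx1 had an adjusted p of 0.0792. With the low-end ones left out, 5 were higher and 0 lower, in place of 2 and 1, beside 28.3% of all probe sets called in place of 20.7%. Car2 and Car1, carbonic anhydrases abundant in red cells, differed by -0.15 (adjusted p = 0.0591) and -0.11 (adjusted p = 0.248), and Bpgm, which sets oxygen affinity through bisphosphoglycerate, by 0.05 (adjusted p = 0.418).

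Of 10 genes of red cell removal and globin scavenging 1 rose and 2 fell, with a median of -0.04. The ferritin chains that store iron moved apart: the heavy chain gene Fth1 fell by 0.24 (SE 0.04, limma adjusted p = 3.0e-04, no overlap of the strains) and the light chain gene Ftl1 rose by 0.22 (SE 0.05, adjusted p = 0.00456). Hp, the hemoglobin-binding haptoglobin gene, fell by 0.20 (adjusted p = 0.0277) and lost its call in 6 of 28 alternatives, namely without the 3 high-end NHR arrays or when dropping HHR female 1, HHR male 2, NHR female 2 or NHR male 3 or 4. Hmox1, which breaks down heme, differed by 0.07 (SE 0.10, adjusted p = 0.669), and Cd163, the receptor of macrophages for hemoglobin bound to haptoglobin, by -0.19 (SE 0.15, adjusted p = 0.406). On the 13 arrays without the high-end NHR ones, 1 was higher and 1 lower, and on the 12 without the low-end ones 2 were higher and 2 lower.

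**Figure D5:**
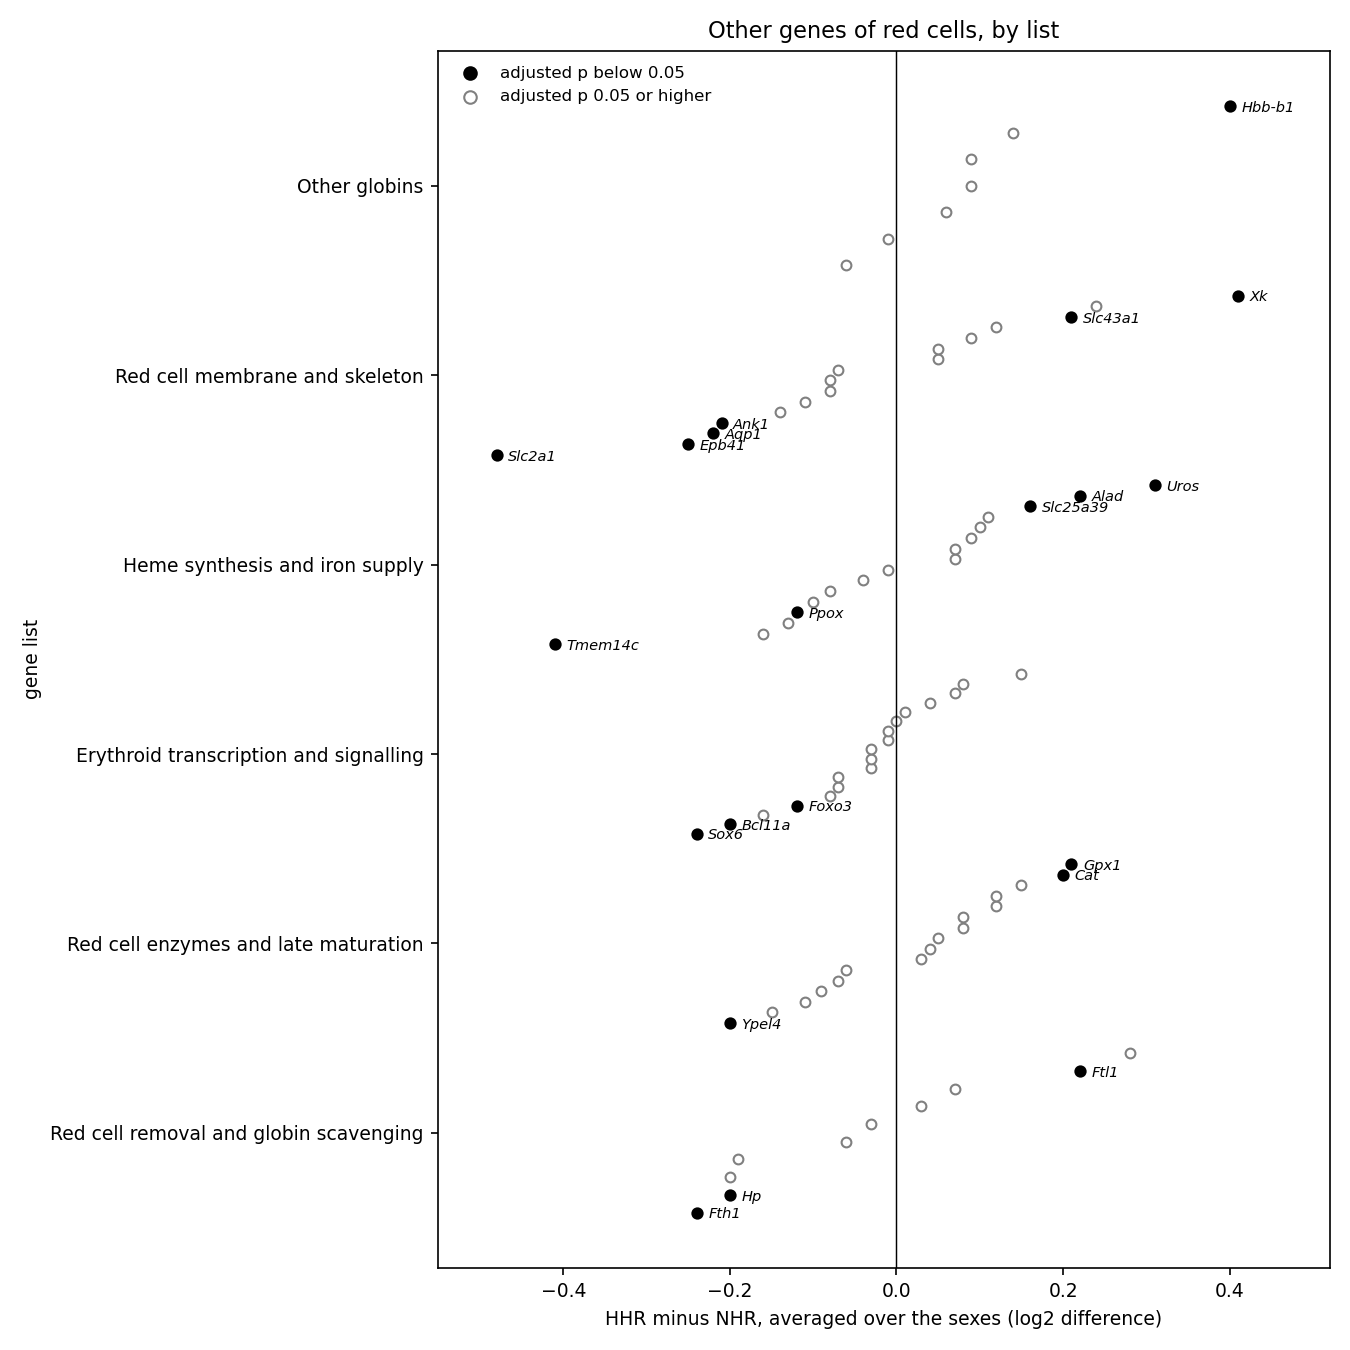
HHR minus NHR, averaged over the sexes (log2 difference, horizontal axis), of the measured genes of 6 lists (vertical axis; within a list genes are sorted by their difference). Filled, named points have a limma adjusted p below 0.05. The filled points lie on both sides of 0 in 4 of the lists.

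Markers of other blood cells were compared because blood held in the heart brings them along with red cells. The 12 neutrophil genes had a mean level of 5.82 to 6.09 on the HHR arrays and 5.89 to 6.10 on the NHR arrays. Of these genes 0 were higher and 2 lower (0 and 1 without the 3 high-end NHR arrays, 0 and 2 without the 4 low-end ones). Fcnb, a secreted lectin gene of neutrophils and the brightest of the list (mean 7.88), fell by 0.34 (SE 0.05, limma adjusted p = 1.9e-04) without overlap of the strains. Csf3r, the receptor gene for a neutrophil growth factor, differed by -0.15 (adjusted p = 0.0277) and lost its call in 10 of 27 alternatives. These were all 3 other scalings, the loss of the 3 high-end NHR arrays, and dropping HHR female 1 or 3, HHR male 2, NHR female 3, or NHR male 1 or 3. The other 11 neutrophil genes, S100a8 and S100a9 (3.97 and 5.69) among them, had means below the median of all probe sets.

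The 9 lymphocyte genes had mean levels of 5.90 to 5.98 in HHR and 5.86 to 6.05 in NHR, with 0 called in either direction by limma, also without the 3 high-end NHR arrays. Of these Cd4, which macrophages may also make, was the brightest (mean 8.11), and the other 8 were below the median of all probe sets. The 12 macrophage genes had 7.26 to 7.61 and 7.30 to 7.65, with 1 higher and 0 lower (1 and 0 without the 3 arrays), the complement gene C1qb at 0.38 (SE 0.09, adjusted p = 0.00484). The 5 measured platelet genes had 6.97 to 7.27 and 6.82 to 7.65, with 1 higher and 1 lower (1 and 1 without the 3 arrays). These were chemokine genes of platelet granules: Pf4 fell by 0.61 (SE 0.12, limma adjusted p = 0.00230) and Ppbp rose by 0.47 (SE 0.12, adjusted p = 0.00994). In size both differences exceeded those of Hbb (0.45) and Ahsp (0.46) and were below that of Hbe1 (0.76). Ppbp lost its call without the 4 low-end NHR arrays (0.31, limma adjusted p = 0.0859). Without those 4 arrays 0 lymphocyte genes were higher and 1 lower, 1 and 1 of the macrophage genes, and 0 and 1 of the platelet genes. The mean levels overlapped between the strains for each of the 4 lists, and their part in the red cell results was not tested. The liver genes Alb and Afp, at 5.85 and 6.25, were below that median and differed by 0.03 each (limma adjusted p = 0.820 and 0.648).

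Ventricular and endothelial markers did move with strain. Of 10 ventricular genes 0 were higher and 7 lower in HHR (median -0.17; 0 and 4 without the 3 high-end NHR arrays), and their mean level ran from 13.19 to 13.31 in HHR and from 13.29 to 13.44 in NHR. Of 9 endothelial genes 2 were higher and 5 lower (median -0.16; 2 and 4 without those arrays). Of 5 atrial genes 3 were higher and 0 lower (median 0.34, with the same counts without those arrays). Without the 4 low-end NHR arrays 0 ventricular genes were higher and 8 lower, 1 and 4 of the endothelial genes, and 3 and 0 of the atrial genes. The part of these shifts in the red cell results was not tested.

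The genes whose deviations within groups were most like those of Hbb were also sought among the other 14323 genes. Outside the set these were Gpx4, the lipid peroxide-reducing glutathione peroxidase (r = 0.90 over 16 arrays), Slc5a4b, a sugar transporter family gene (r = 0.87), and Naa38, a subunit of an amino-terminal acetyltransferase (r = 0.87). Alas2 came next, in place 4 of 14323, Hbe1 in place 10, Slc4a1 in place 14, Ahsp in place 27 and Hemgn in place 96, whereas Epb42 was in place 11846. Hbb-b1, whose probe set may share signal with that of Hbb, was in place 45. These r values rank genes over the same arrays and carry no test. Slc5a4b was among the probe sets dropped in the fit with dim probe sets left out. None of the 3 outside genes passed the strain test: Gpx4 differed by -0.10 (limma adjusted p = 0.355), Slc5a4b by -0.01 (adjusted p = 0.868) and Naa38 by 0.04 (adjusted p = 0.637).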

How the data were processed

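Heart RNA of 16 rats was measured on Affymetrix Rat Gene arrays, 1 array per animal, per the labels. The authors deposited log2 values from RMA (background correction, normalization between arrays and a summary per probe set). RMA and limma are the tools in the submitters' processing notes. Neither a version nor a genome build is given in the sources used here. No column was left out, and no background level accompanies the values. A sequence difference between the strains under a probe cannot be told from a change in RNA, and this was not tested.

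Gene names came from the annotation of the array: 15097 probe sets list a single symbol, 323 several and 11922 none, and no gene was named from a probe set with several. Each gene was read from its brightest single-symbol probe set. Means of the 4 groups were fitted to all 27342 probe sets with limma 3.58.1 in R 4.3.3 (empirical Bayes, Benjamini-Hochberg, threshold 0.05). The procedure was tested on simulated data. The simulated noise was independent between arrays and probe sets, so it lacked the main axis among replicates of these data. Errors beside means are SDs, intervals are 95% confidence intervals of the moderated model, and p-values measure the spread between animals, whose litters are not given. Correlations used 100000 permutations within groups. Named genes were the members, up to 4 passing genes of each list, Gata1, Klf1, Tal1, Epor and Tfrc, and the 3 genes most like Hbb. Other names were chosen after their values were seen. The members and lists were chosen with earlier results of these data known. Promoters are RefSeq's, build GRCr8, where 7 of the 9 members have an entry.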

Additional observations from a re-analysis of the deposited data

Results flagged for a closer look

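In groups of 4 arrays, 9 of the 220 sets of values checked held an array far from the other 3, judged by its gap to the nearest of them over the whole range of the group (Dixon's ratio). Chance alone gives about 1 in 20. Among the members these were Hbb in HHR female 4 (12.47, nearest other 12.67, ratio 0.929), Ahsp in NHR female 1 (8.23, nearest 7.57, ratio 0.877) and Hemgn in HHR female 3 (7.86, nearest 7.70, ratio 0.834). Hbb-b1 was high in NHR male 4 (11.66, nearest 11.02, ratio 0.833), the array that was also the highest NHR array for Hbb, Hbe1, Alas2 and Slc4a1. Gpx4 was low in HHR female 4 (8.05, nearest 8.30, ratio 0.839), as Hbb was. Slc2a1 stood apart in HHR male 4 (11.55, nearest 11.16, ratio 0.882) and in NHR female 3 (11.69, nearest 11.71, ratio 0.835), Ank1 in NHR female 2 (8.81, nearest 8.69, ratio 0.891) and Alad in NHR male 2 (8.99, nearest 8.74, ratio 0.875).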

How the results depend on the processing

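No gene's called difference changed direction under the alternatives run. Of 83 results on single genes or probe sets 15 crossed 0, and 0 of these had passed by limma. They include both Hba-a2 and Hba-a1 probe sets (0.03 and 0.04, down to -0.05 and -0.04), Tfrc (-0.05 to 0.03), and interactions and sex differences of members, as for Hbe1 between the sexes (-0.13 to 0.42). For the strain difference over both sexes, Hbb, Hbe1, Slc4a1 and Epb42 passed in all 28 alternatives and Ahsp in 27 (limma adjusted p from 0.00166 to 0.0628). Leaving out 1 array at a time gave 3 to 4 members higher, 2 lower and 4651 to 6402 probe sets called. In males it gave 0 to 1 members higher, 1 lower and 489 to 2026 probe sets, and in females 0 to 3 higher, 1 to 2 lower and 1830 to 3761 probe sets. It gave 0 to 1 probe sets for the interaction, 2 to 4 for sex and 11 to 15 correlated pairs. In males 1 member, Hbb, was higher in place of 0 with dim probe sets left out, with single-symbol probe sets alone and with array weights, which also called 2035 probe sets. In females 2 members were higher with array weights and with the 8 females alone, and array weights called 5 probe sets for sex. Without NHR female 3, NHR female 4 and NHR male 4 together, 2 members were higher in males, 0 were lower in females with 1238 probe sets called, 0 probe sets were called for sex by limma and 4 pairs of members were correlated. Without NHR female 1, NHR female 2, NHR male 1 and NHR male 2 together, 3432 probe sets were called in males and 5498 in females, where 2 members were higher, 1 for the interaction and 0 for sex by limma, and 7 pairs were correlated. Fewer arrays were tested in both, and the cause of the other changes was not tested.

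With the replicate number as a block, 1 member was higher in males (Hbb, limma adjusted p = 0.0419), Foxo3 lost its call (adjusted p = 0.0610), and 6145 probe sets were called over both sexes. Same-numbered arrays of the strains had correlations of -0.11 to 0.30, so the numbers were not taken as pairs. Other scalings moved the median of all probe sets from -0.03 to between -0.01 and 0. With 4 arrays a group, precision is limited by their number, and genes near the background of the array cannot be judged without a background level.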
